A study of Homo sapiens with 72 samples.

Results

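The subject of these results is the group of transcripts with numbered ZNF symbols, most of them mRNAs of zinc finger proteins. They were measured in A375 cells, a human melanoma line with a BRAF mutation. Members were chosen by name and by their measured 0 h level. They were the genes of the raw count table whose symbol is ZNF, a number and at most 1 further letter, and whose mean level over the 6 T-arm 0 h libraries of the 2 control conditions was at least 5 CPM, the gene's count scaled to a common library total. Of 534 such symbols, 509 had a count in some library and 249 passed the level, out of 44659 genes in the table. The other 285 ZNF symbols were below it. The last members inside the level were ZNF641 at 5.10 CPM and ZNF184 at 5.15 CPM, and the first outside were ZNF341 at 4.94 CPM and ZNF575 at 4.93 CPM. All 249 members passed the count filter of every fit. Because the rule used 0 h control levels, those levels are given as a description, and the counts of called members that use the same libraries are also given with the 0 h libraries of the second arm, as are the named 0 h differences and the largest falls.

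The 72 libraries were QuantSeq 3′ mRNA libraries of cytoplasmic RNA, with 3 replicates in each of 24 groups. The 4 conditions form 2 pairs. In the first, cells received for 42 h a pool of siRNAs against CTU2 (siCTU2) or the control siRNA against luciferase GL2 (siGL2). In the second, cells were kept for 18 h in medium without (mQ) or with (pQ) glutamine. Every condition was followed in a T arm, with triptolide at 25 µM to stop transcription, and a TCHX arm, with triptolide and cycloheximide at 100 µg/ml to stop translation as well, and cells were taken at 0, 3 and 5 h. CTU2 is a subunit of the enzyme that thiolates the wobble uridine of some tRNAs, among them those that read the AAA and GAA codons. The labels give a replicate number but do not name separate cultures, so p-values measure the spread between these samples only.

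C2H2 zinc finger genes are the most numerous family of human transcription factors. A finger is a short fold in which paired cysteines and histidines hold a zinc ion, and successive fingers, joined by a conserved threonine-glycine-glutamate-lysine-proline linker, read DNA. Many members also carry a KRAB domain, which recruits the corepressor TRIM28 and the histone methyltransferase SETDB1 to silence transposable elements and imprinted genes. mRNAs of transcription regulators, this family among them, are known as a short-lived class.

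From the GENCODE coding sequences, 132 members had a KRAB A box, 113 had none, and 4 (ZNF252P, ZNF271P, ZNF542P and ZNF720) had no usable coding sequence. Of the 245 with a sequence, 94 lay on chromosome 19. The median member held 9 C2H2 fingers, with 11.5 in the KRAB class and 7 in the other. In-frame AAA codons made up a median of 5.35% of the coding sequence of KRAB members, 2.69% of the other members and 2.40% of the 9189 other genes between 5 and 408 CPM, which are called here other genes of similar level. The corresponding medians for GAA codons were 4.12%, 2.70% and 2.93%, and for codons that end in A or T 58.3%, 40.1% and 43.1%.

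To show what this codon use looks like, the first finger of the linker-joined form is printed for 8 members, 26 codons from the first cysteine to the proline that ends the linker, read on the coding strand of GRCh38. Capitals mark in-frame AAA and GAA codons. All of the stretches are exonic coding sequence in the last exon of the canonical transcript. The first 5 members have a KRAB A box and the last 3 have none. In the siGL2 T arm ZNF184, ZNF670, ZNF773, ZNF574 and ZNF408 fell far, and ZNF267 and ZNF91 less so. ZNF358 had the smallest fall of all members in the mean over the 4 conditions.
ZNF184 (chr6:27452812-27452889, minus strand): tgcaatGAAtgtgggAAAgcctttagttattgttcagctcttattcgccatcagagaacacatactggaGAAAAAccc
ZNF670 (chr1:247037947-247038024, minus strand): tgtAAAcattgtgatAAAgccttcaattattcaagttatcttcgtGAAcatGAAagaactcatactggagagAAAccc
ZNF773 (chr19:57506672-57506749, plus strand): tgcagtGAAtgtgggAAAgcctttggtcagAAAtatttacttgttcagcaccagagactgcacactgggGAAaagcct
ZNF267 (chr16:31915393-31915470, plus strand): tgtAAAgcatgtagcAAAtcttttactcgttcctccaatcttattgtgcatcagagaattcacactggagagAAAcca
ZNF91 (chr19:23362100-23362177, minus strand): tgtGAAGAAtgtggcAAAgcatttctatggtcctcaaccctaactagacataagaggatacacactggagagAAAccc
ZNF574 (chr19:42080095-42080172, plus strand): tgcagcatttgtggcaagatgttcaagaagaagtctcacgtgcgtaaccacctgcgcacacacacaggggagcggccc
ZNF408 (chr11:46705108-46705185, plus strand): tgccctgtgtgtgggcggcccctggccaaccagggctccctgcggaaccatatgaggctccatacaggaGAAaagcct
ZNF358 (chr19:7519783-7519860, plus strand): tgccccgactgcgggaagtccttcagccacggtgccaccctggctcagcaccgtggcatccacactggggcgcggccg

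The 5 KRAB fingers shown held 3 to 5 AAA or GAA codons each, while ZNF574 and ZNF358 held 0 and ZNF408 held 1. Lysine and glutamate codons of any spelling numbered 4 to 6 in the KRAB fingers, 5 in ZNF574, 2 in ZNF408 and 1 in ZNF358, and the linkers shown for ZNF574 and ZNF358 are variants that lack the lysine. Over all members, 161 of 245 carried at least 1 exact copy of the linker, 864 copies in all. Its lysine was AAA in 67.9% of copies and its glutamate was GAA in 21.6%. In KRAB members the lysine was AAA in 71.7% of 703 copies, against 51.6% of 161 copies in the others.

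Library totals ran from 5.99e+06 to 1.55e+07 counts, with a count for 15507 to 20364 genes. Melanocyte lineage genes gave a mixed check of the cell type in the libraries the rule used: MITF stood at 352 CPM, S100B at 335 CPM, SOX10 at 293 CPM, the pigment enzyme DCT at 62.6 CPM and PMEL at 4.88 CPM, but MLANA and TYR were at 0.249 and 0.578 CPM. Keratinocyte markers were at 0 for 4 of 5 genes. Fibroblast markers were at 0 for 2 of 5 genes, and LUM among them stood at 5.26 CPM. Blood markers were at 0 for 2 of 4 genes, and 0 of them reached 1 CPM. CTU2 mRNA stood between 0.133 and 2.95 CPM in 17 of the 18 siCTU2 libraries and between 17.5 and 35.0 CPM in siGL2. In the remaining one, labelled siCTU2 TCHX 5 h replicate 3, CTU2 stood at 10.4 CPM, which went against its label. This library, mQ T 5 h replicate 3 and pQ TCHX 0 h replicate 3 were treated as libraries that stand apart, and the main counts and medians they touch are given with and without them. No cut on correlation set this choice. The mQ T 5 h replicate 3 library (mean r 0.922) was above mQ TCHX 5 h and siGL2 TCHX 5 h replicate 3 (0.915 and 0.916), which were kept. It stood out in the share of its counts held by members, 0.554% against 0.292% and 0.320% in replicates 1 and 2. That share is part of the result, so values without this library are alternatives only. The pQ TCHX 0 h replicate 3 library had a mean r of 0.962, against 0.977 and 0.974 in replicates 1 and 2. Its member share, 0.629%, lay between their 0.623% and 0.643%, so values without it are alternatives as well. The 5 h libraries of replicate 3 also had the lowest mean correlations with their groups, 0.915 to 0.944.

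The level of the members themselves was modest, with a median of 13.5 CPM in the libraries the rule used. ZNF106, an RNA-binding protein linked to splicing, was highest at 408 CPM. ZNF24, a SCAN domain transcription factor, followed at 243 CPM, and ZNF207, which binds microtubules and the checkpoint protein BUB3, at 201 CPM. Several well-known family members lay below the level. ZNF10, whose KRAB domain is used in engineered repressors, stood at 2.2 CPM, ZNF93, which represses LINE-1 elements, at 0.301 CPM, and ZNF598, an E3 ligase for collided ribosomes, was at 0. Many other ZNF symbols were also at exactly 0. Such a 0 says that no read was assigned to the symbol in these libraries, and whether the mRNA was absent was not tested. A 3′ library counts 1 tag per mRNA, so CPM were compared between genes without a length correction, and fewer mRNAs in all cells cannot be told apart from fewer cells holding them.

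After transcription was stopped, ZNF mRNAs fell faster than other genes in every condition. In siGL2, the median member kept 36.3%, 38.7% and 37.5% of its 0 h level after 3 h in the 3 replicates, and 23.2%, 26.6% and 21.3% after 5 h. Other genes of similar level kept 73.5%, 70.7% and 70.3% after 3 h and 66.6%, 65.1% and 47.1% after 5 h. The replicates of the 2 gene groups did not overlap at either time. In pQ, members kept 32.3% ± 2.8 (SD, n = 3) at 3 h and 22.9% ± 1.9 at 5 h, against 61.5% ± 5.1 and 58.9% ± 10.6 for other genes. In siCTU2 the 3 h values were 39.2% ± 4.2 and 68.0% ± 5.2. In mQ, members kept 20.6% and 21.3% at 5 h in replicates 1 and 2, and 53.7% in replicate 3, the library that stands apart.

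**Figure D1:**
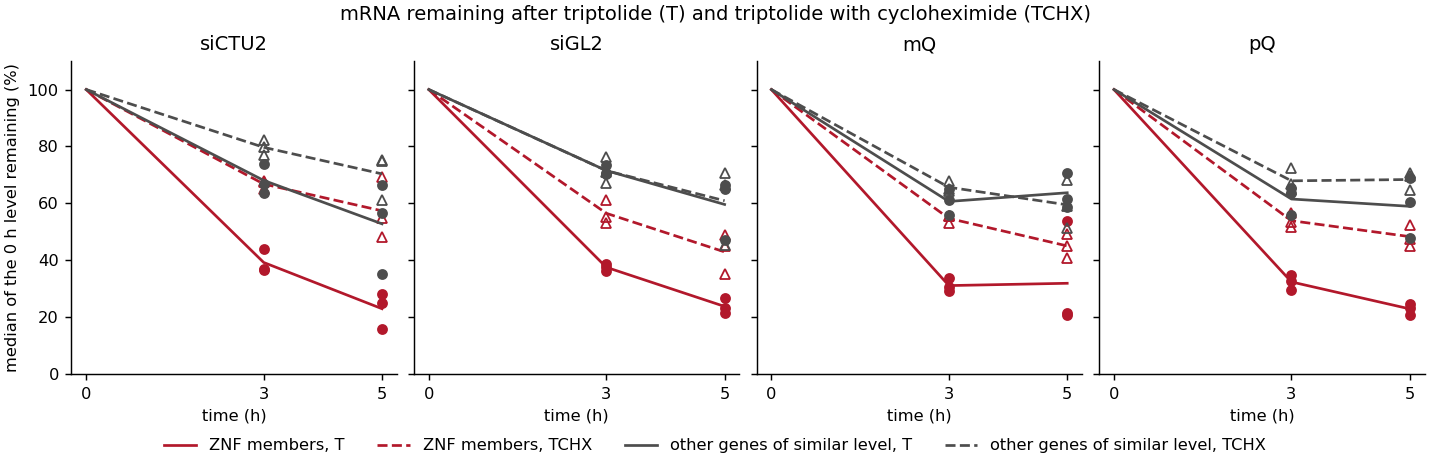
Median percentage of the 0 h normalised read count that remained (vertical axis) at 0, 3 and 5 h (horizontal axis, h), in 4 panels by condition. Red shows the 249 ZNF members and grey the 9189 other genes of similar level; filled circles and solid lines are the T arm, open triangles and dashed lines the TCHX arm, each point 1 replicate and each line the mean of 3. The solid red line is the lowest in each panel, and 1 mQ replicate at 5 h, at 53.7%, sits far above the other 2.

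A fall relative to other mRNAs was also seen in the share of each library taken by the members, which uses no stable genes. In siGL2 this share was 0.629%, 0.622% and 0.642% at 0 h in the T arm, 0.395%, 0.395% and 0.412% at 3 h, and 0.312%, 0.294% and 0.348% at 5 h. With cycloheximide the 5 h share was 0.434%, 0.455% and 0.519%. Each TCHX library at 5 h was thus above each T library, and below each 0 h library. In mQ the T-arm share at 5 h was 0.292% and 0.320% in replicates 1 and 2, and 0.554% in replicate 3.

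Per gene, the T-arm change (log2, mean of 3 and 5 h against 0 h) was tested with edgeR's quasi-likelihood test and Benjamini-Hochberg adjustment over all genes, and a gene was called at an adjusted p under 0.05. In siCTU2, 236 of 249 members were called lower and 0 higher, where 62.6% of all 13638 genes tested and 74.5% of other genes of similar level were called lower. In siGL2 the count was 233, with 47.5% of all genes and 55.4% of other genes called lower. In mQ it was 236, beside 58.6% and 69.6%, and in pQ 234, beside 64.3% and 76%. The members differed from other genes more in size than in the share called. Their median change was -1.73, -1.77, -1.62 and -1.86 in siCTU2, siGL2, mQ and pQ, and that of other genes -0.72, -0.59, -0.66 and -0.71. In total, 220 members (88.4%) were called lower in all 4 conditions, against 46.5% of other genes.

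The gap between the groups was measured in each replicate. The median of members minus the median of other genes was -1.01 ± 0.06 in siCTU2, -1.16 ± 0.14 in siGL2, -1.07 ± 0.34 in mQ and -1.17 ± 0.06 in pQ (SD, n = 3). All 12 replicate values were below 0, from -0.68 in mQ replicate 3 to -1.31 in siGL2 replicate 1. Without mQ T 5 h replicate 3, the mQ median of members was -1.99 and 243 were called lower, beside 63.9% of all genes. With the TCHX 0 h libraries as baseline, which the rule did not use, 234 members in siGL2 (52.2% of all genes) and 235 in pQ (57.1% of all genes) were called lower, with medians of -1.77 and -1.79. Without pQ TCHX 0 h replicate 3 the pQ values were 231 (57.1% of all genes) and -1.90. Scaling mattered for the level of all genes: stable genes put the median of all genes at -0.71, -0.59, -0.66 and -0.71, and TMM at -0.02, 0.01, 0.02 and -0.01. Under TMM the members' medians were -1.06, -1.15, -0.96 and -1.14, with 172, 175, 143 and 173 called lower and 4, 0, 2 and 1 higher, while of all genes 2507, 2082, 1631 and 2224 were called lower and 1355, 859, 551 and 995 higher.

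Members with a KRAB A box fell further than those without in each condition. Their median T-arm change was -1.91, -1.98, -1.80 and -2.22 in the order above, against -1.51, -1.47, -1.44 and -1.57 for members without a KRAB A box. Over the conditions 128 to 131 of 132 KRAB members were called lower, where 47.5% to 64.3% of all genes were. Most members without a KRAB A box were called lower too. In siGL2 the counts were 128 of 132 and 101 of 113. Without mQ T 5 h replicate 3 the mQ medians of the 2 classes were -2.26 and -1.85. The other genes with a C2H2 finger (n = 196), which carry other names, had medians of -1.36, -1.09, -1.21 and -1.26, and 15 other genes with a KRAB A box had -1.91, -1.63, -1.86 and -1.86. Members on chromosome 19 had medians of -2.05, -2.18, -1.90 and -2.38, and those elsewhere -1.61, -1.64, -1.54 and -1.70. The gap was also present among genes of low level. At 5 to 10 CPM, the 86 members had a median of -2.07 in siGL2 and the 1278 other genes -0.74.

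**Figure D2:**
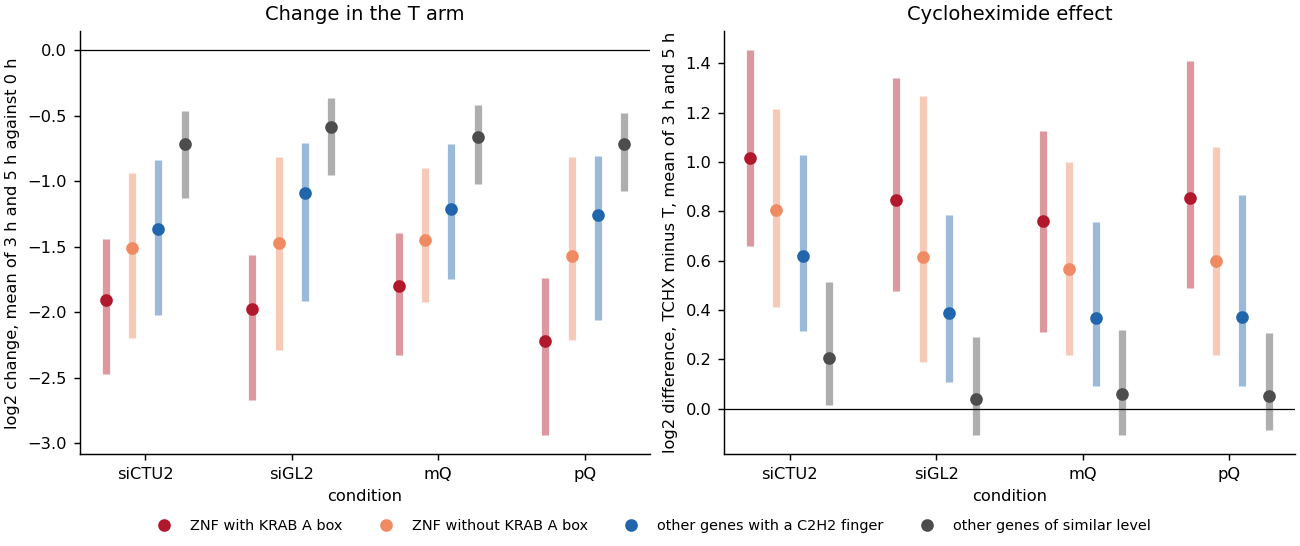
Median (point) and quartiles (bar) over genes of the log2 T-arm change (left) and of the log2 cycloheximide effect (right), by condition on the horizontal axis, for ZNF members with and without a KRAB A box, other genes with a C2H2 finger and other genes of similar level. Of the 4 gene sets drawn, the KRAB class is lowest on the left and highest on the right in each condition, for example -1.98 and 0.85 in siGL2.

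Among single members, ZNF217, a transcriptional repressor amplified in breast cancer, was one of the fastest. Its normalised read count in siGL2 was 154, 196 and 214 at 0 h, 13.9, 18.5 and 21.0 at 3 h, and 4.18, 5.75 and 5.44 at 5 h in the T arm. The 3 times did not overlap, and the T-arm change was -4.28 ± 0.23 (SE; edgeR adjusted p = 8.13e-10). ZNF503, a developmental corepressor, went from 717, 828 and 680 at 0 h to 8.36, 20.1 and 10.9 at 5 h, a change of -4.57 ± 0.23 (edgeR adjusted p = 3e-10). Against the TCHX 0 h libraries the changes of ZNF217 and ZNF503 were -4.40 and -4.58 (edgeR adjusted p = 5.26e-10 and 3.1e-10). ZNF281, a factor tied to pluripotency and epithelial-mesenchymal transition, kept 13.6% ± 5.7 at 3 h and 4.80% ± 2.23 at 5 h (SD, n = 3). ZNF574, ZNF296, ZNF670 and ZNF134 completed the 6 largest mean falls with ZNF217 and ZNF503, and in these the 5 h T-arm counts were so low that single libraries held few reads. ZNF296 had raw counts of 5, 0 and 1 in siGL2 and 0, 1 and 0 in pQ at 5 h, ZNF574 had 0, 0 and 3 in siGL2, and no fold is given for them.

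Of the KRAB members known from silencing work, ZNF274, which binds the 3′ ends of other zinc finger genes, fell by 2.48 ± 0.30 in siGL2 (SE; edgeR adjusted p = 3.77e-06). ZNF263, with KRAB and SCAN domains, fell by 3.19 ± 0.29 (edgeR adjusted p = 2.09e-07). ZNF91, the repressor of SVA elements, fell by 1.51 ± 0.23 (edgeR adjusted p = 4.51e-05), close to the median of all members. ZNF445, which protects imprints, changed by -1.60 ± 0.19. ZNF24 was at 2877, 3437 and 3029 normalised counts at 0 h and at 811, 979 and 570 at 5 h, and every 5 h library was below every 0 h library (log2 change -1.71 ± 0.21, edgeR adjusted p = 4.17e-06).

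Not all of the family was short-lived. ZNF664, ZNF511, ZNF358, ZNF655 and ZNF385A were called lower in no condition. ZNF358 had log2 changes of 0.06, -0.08, -0.49 and -0.01 in siCTU2, siGL2, mQ and pQ. It was itself one of the 198 stable genes that set the scale of the siRNA experiment, so its change there is not independent of the scaling. ZNF428 had 2154, 2160 and 2381 normalised counts at 0 h and 1528, 1874 and 2796 at 5 h in the siGL2 T arm, groups that overlap. ZNF106, the most abundant member, kept 61.5% ± 8.1 at 5 h, and ZNF207 kept 48.8% ± 15.8 (SD, n = 3) against a median of 59.6% ± 10.9 for other genes. In siGL2 their changes were -0.56 ± 0.13 and -0.84 ± 0.20 (edgeR adjusted p = 0.00176 and 0.00218).

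**Figure D3:**
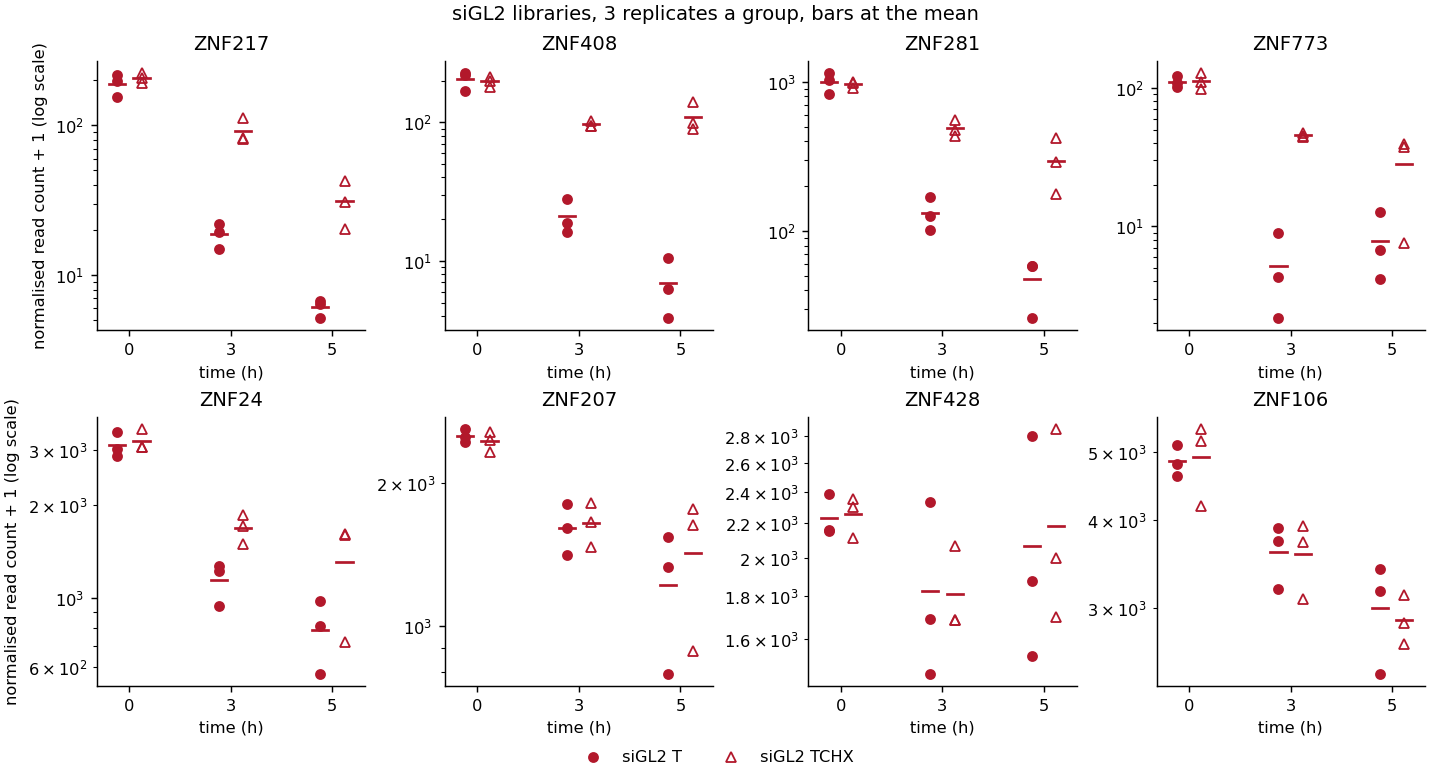
Normalised read count plus 1 (log scale, vertical axis) of 8 members in the siGL2 libraries at 0, 3 and 5 h (horizontal axis, h); filled circles are T libraries, open triangles TCHX libraries, bars the means of 3. ZNF217, ZNF408, ZNF281 and ZNF773 fall steeply in the T arm and less in the TCHX arm, while both arms lie together for ZNF207, ZNF428 and ZNF106.

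Cycloheximide stops elongating ribosomes, and the difference between the arms at 3 and 5 h (TCHX minus T, log2) measures how much more mRNA is kept when translation is blocked. None of these libraries entered the choice of members. In siCTU2, 174 members were called higher with cycloheximide and 0 lower, where 21% of all 13638 genes and 25.3% of other genes of similar level were called higher and 0.169% of all genes lower. In siGL2, 135 were called higher and 2 lower, beside 12.1% and 14.1% of all genes and other genes called higher and 0.555% of all genes called lower. In pQ, 143 were called higher and 0 lower, beside 12.3%, 14.1% and 0.457%. In mQ, 53 were called higher and 0 lower, beside 5.12%, 6.16% and 0.119%. With the difference between the arms at 0 h subtracted, 101, 45, 0 and 67 members were called higher in siCTU2, siGL2, mQ and pQ, where 8.59%, 3.77%, 0.00744% and 5.17% of all genes were, and in mQ 53 members had an unadjusted p under 0.05 in edgeR and DESeq2 called 0.

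The median effect in members was 0.94, 0.71, 0.64 and 0.72 in siCTU2, siGL2, mQ and pQ, and in other genes 0.21, 0.04, 0.06 and 0.05. The gap between the medians was 0.68 ± 0.05, 0.66 ± 0.06, 0.70 ± 0.30 and 0.67 ± 0.03 (SD, n = 3), and its lowest single replicate was 0.35 in mQ replicate 3. The mQ count turned on 1 library. Without mQ T 5 h replicate 3, 176 members were called, beside 21.1% of all genes, with a median of 1.05. Leaving out all of mQ replicate 1 or 2 instead gave 0 calls by edgeR, with 78 and 57 members at an unadjusted p under 0.05. Without the library labelled siCTU2 TCHX 5 h replicate 3, 158 members were called in siCTU2, beside 17.2% of all genes, and the median was 0.83. At 3 h alone, 61, 50, 1 and 50 members were called in siCTU2, siGL2, mQ and pQ, where 4.31%, 3.44%, 0.342% and 2.81% of all genes were.

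Members called higher in all 4 conditions numbered 43 (17.3%), against 4.12% of other genes, and 105 (42.2%), against 9.91% of other genes, when the libraries that stand apart were left out. KRAB members had median effects of 1.02, 0.85, 0.76 and 0.85, and members without a KRAB A box 0.81, 0.61, 0.57 and 0.60. Without the libraries that stand apart, the medians of the 2 classes were 0.94 and 0.77 in siCTU2 and 1.28 and 0.91 in mQ. In those fits 62.1%, 51.5%, 72.0% and 60.6% of KRAB members were called higher in siCTU2, siGL2, mQ and pQ. Of members without a KRAB A box 67.3%, 59.3%, 70.8% and 54.9% were, beside 17.2%, 12.1%, 21.1% and 12.4% of all genes. By calls, the order of the 2 classes thus differed between conditions. Other genes with a C2H2 finger had 0.62, 0.39, 0.37 and 0.37. Cycloheximide did not hold the mRNAs at their 0 h level. In the TCHX arm the members still fell by a median log2 change of -0.66, -1.0, -1.02 and -1.0, against -0.39, -0.59, -0.67 and -0.54 for other genes. In that arm 123, 205, 188 and 203 members were called lower, where 22.5%, 49.4%, 61.6% and 52.2% of all genes were. Without the libraries that stand apart, 151 in siCTU2, 227 in mQ and 200 in pQ were called lower, beside 27.2%, 69.8% and 52.3% of all genes, with medians of -0.76, -1.02 and -1.07.

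The largest mean effect was that of ZNF408, a gene of inherited retinal disease. In siGL2 its normalised count was 17.9, 15.2 and 26.9 at 3 h in the T arm and 92.7, 101 and 93.0 in the TCHX arm. At 5 h it was 5.22, 2.87 and 9.52 against 87.9, 98.3 and 140. The arms did not overlap at either time, and the effect was 3.18 ± 0.22 (SE; edgeR adjusted p = 4.85e-08). It was called higher in all 4 conditions, with effects of 3.18, 3.18, 2.57 and 2.79, and of 4.54 in mQ without mQ T 5 h replicate 3. ZNF691, ZNF503, ZNF296, ZNF217 and ZNF764 followed it in the mean over conditions. ZNF503 had 8.36, 20.1 and 10.9 counts at 5 h in the T arm and 292, 264 and 171 in the TCHX arm of siGL2, an effect of 3.23 ± 0.21 (edgeR adjusted p = 2e-08). ZNF773, a KRAB member, was at 7.95, 3.26 and 1.17 at 3 h in the T arm and 43.4, 46.5 and 43.7 in the TCHX arm, where the arms again did not overlap (effect 2.60 ± 0.42, edgeR adjusted p = 0.00031).

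At the other end, ZNF704, ZNF76, ZNF883 and ZNF706 had the lowest mean effects. In siGL2 the 2 members called lower with cycloheximide were ZNF704, by -0.45 ± 0.14 (edgeR adjusted p = 0.0489), and ZNF652, a transcriptional repressor, by -0.54 ± 0.10 (edgeR adjusted p = 0.000814). ZNF652 was at 301, 317 and 379 normalised counts at 5 h in the T arm and at 191, 187 and 180 in the TCHX arm. Those arms did not overlap. ZNF106 and ZNF207 were called in no condition, with effects between -0.13 and 0.21.

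The partners of the KRAB domain were measured as a separate list. Of 13 genes of the TRIM28, SETDB1, heterochromatin protein and HUSH machinery, 13, 10, 13 and 13 were called lower in the T arm, beside 62.6%, 47.5%, 58.6% and 64.3% of all genes, with medians of -0.58, -0.43, -0.67 and -0.52, above the medians of other genes of similar level in all conditions but mQ. With cycloheximide 3, 2, 0 and 2 of them were called higher, beside 21%, 12.1%, 5.12% and 12.3% of all genes. TRIM28 itself, which bridges KRAB proteins to chromatin enzymes, had T-arm differences of -0.33, -0.29, -0.43 and -0.46, called in all conditions but siGL2, and SETDB1 fell by 1.71, 1.96, 1.24 and 1.91. The cycloheximide effect of SETDB1 was 0.63, 1.09, 0.39 and 0.60, past the threshold in siGL2 alone, and that of TRIM28 in siGL2 was -0.07.

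Sequence features that the rule did not use were set beside these changes as a description. Members with 0 to 4 fingers (n = 48) had a median T-arm change of -1.24 over the mean of the 4 conditions, those with 5 to 9 (n = 75) -1.84, those with 10 to 14 (n = 72) -2.10 and those with 15 or more (n = 50) -1.86. Their median cycloheximide effects were 0.52, 0.79, 0.92 and 0.79. Across the 245 members with a sequence, Spearman's rho between the number of fingers and the T-arm change was -0.25, and between the 0 h level and the T-arm change 0.30. The finger number and the level were themselves related, with rho = -0.33. For A/T-ending codons rho was -0.06 with the T-arm change and -0.16 with the cycloheximide effect, and for AAA codons -0.07 and -0.17. All members share the same libraries, so these are descriptions across genes and not tests.

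**Figure D4:**
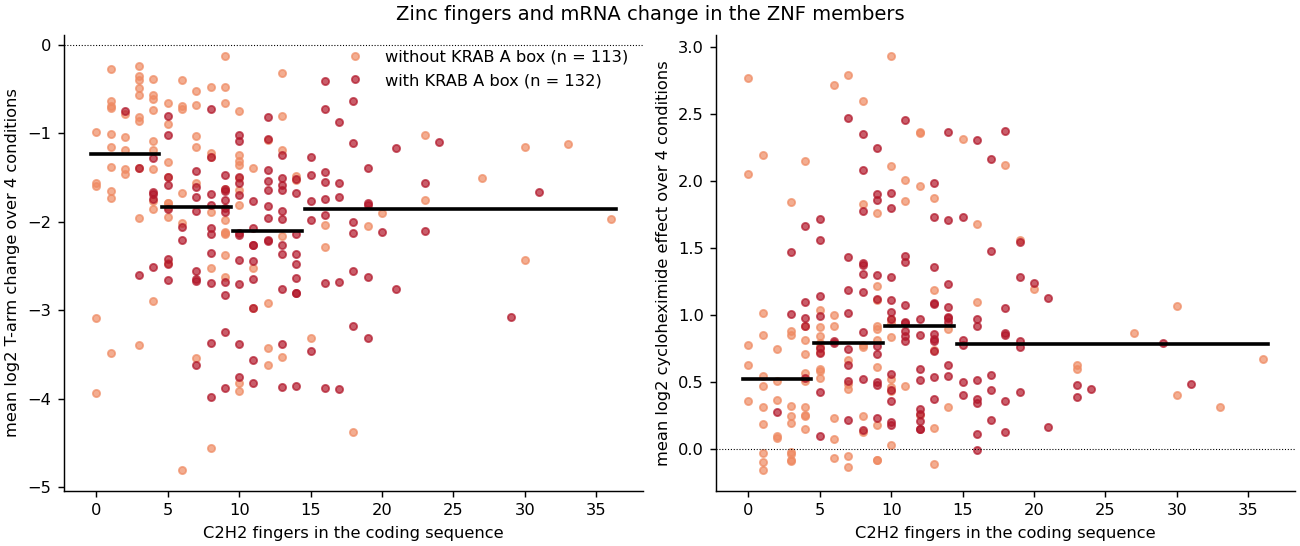
Number of C2H2 fingers in the coding sequence (horizontal axis) against the log2 T-arm change (left) and the log2 cycloheximide effect (right), each the mean of 4 conditions, with 1 point per member, in red for those with a KRAB A box (n = 132) and orange for those without (n = 113). Black lines are the medians of the classes 0 to 4, 5 to 9, 10 to 14 and 15 or more fingers, lowest on the left at -2.10 for 10 to 14 fingers.

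Members and other genes were also split by codon ending. In other genes, the median T-arm change went from -0.57 where under 45% of codons ended in A or T (n = 4530) to -0.76 where 60% or more did (n = 1684). In the members, the 4 classes split at 45%, 55% and 60% had -1.64 (n = 94), -1.83 (n = 42), -1.74 (n = 26) and -1.79 (n = 83). These medians had no order. The cycloheximide effects of the 4 classes were 0.89, 0.85, 0.58 and 0.71. At each codon class the members' median lay further from 0 than that of other genes. Length of the 3′ untranslated region gave medians between -1.65 and -1.86 over 4 classes, with no order.

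The design next asks whether loss of CTU2 changed these dynamics. The difference between siCTU2 and siGL2 in the T-arm change was called for 3 members, 1 higher and 2 lower, where 0.0491% and 0.0561% of all 14259 genes were. The difference in the cycloheximide effect was called higher for 4 members and lower for 0, where 0.351% of all genes were called higher and 0.0281% lower. The medians of the differences over members were 0.08 and 0.11, and over other genes -0.10 and 0.14. For KRAB members they were 0.11 and 0.11. Without the library labelled siCTU2 TCHX 5 h replicate 3, the T-arm difference was called higher for 1 member and lower for 3. Of all 14675 genes, 0.123% were called higher and 0.613% lower. The cycloheximide difference was then called higher for 3 members and lower for 1, beside 0.184% and 0.0613% of all genes. The medians over members were 0.08 and 0.07 in these fits.

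ZNF593, the homologue of a yeast factor that accompanies the large ribosomal subunit out of the nucleus, stood apart from this. In siGL2 its T-arm normalised counts were 910, 975 and 808 at 0 h and 466, 528 and 536 at 5 h. In siCTU2 they were 342, 313 and 297 at 0 h and 18.8, 28.7 and 18.0 at 5 h. It thus kept 57.2% ± 8.0 in siGL2 and 6.91% ± 1.97 in siCTU2 (SD, n = 3), and these ranges do not overlap. The T-arm change differed by -2.30 ± 0.38 (SE; edgeR adjusted p = 0.0139) and the cycloheximide effect by 2.28 ± 0.31 (edgeR adjusted p = 0.000156). In the TCHX arm at 5 h the siCTU2 libraries had 129, 173 and 576 counts, the last in the library labelled siCTU2 TCHX 5 h replicate 3. Without that library the difference in the cycloheximide effect was 1.81, with an adjusted p from edgeR of 5.97e-07. ZNF622, which matures the same subunit in the cytoplasm, had effects of 1.02 and 0.58 in siCTU2 and siGL2, a difference that was not called.

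ZNF267, a KRAB member, was at 112, 109 and 68.7 counts at 5 h in the siGL2 T arm and at 53.5, 40.9 and 34.2 in siCTU2. It fell by 1.34 ± 0.24 more in siCTU2 (edgeR adjusted p = 0.0139), and its cycloheximide effect was 0.89 ± 0.20 larger (edgeR adjusted p = 0.0326, and 0.059 without the libraries that stand apart). ZNF768 went the other way: it kept 21.2% ± 3.1 at 5 h in siGL2 and 43.1% ± 1.1 in siCTU2 (SD, n = 3), a difference in T-arm change of 1.14 ± 0.23 (edgeR adjusted p = 0.0328). ZNF652 and ZNF451, a SUMO ligase, had cycloheximide effects that were higher in siCTU2, by 0.67 ± 0.14 and 0.62 ± 0.14 (edgeR adjusted p = 0.019 and 0.0306). ZNF652 was itself called lower with cycloheximide in siGL2, so its difference starts from an effect below 0 and is not a larger gain. Under TMM the differences of ZNF652 and ZNF451 were 0.48 and 0.43, with adjusted p from edgeR of 0.551 and 0.447. Without replicate 1 or 2, which leaves 2 libraries a group, the calls were 0 and 0 of the T-arm difference and 0 and 1 of the cycloheximide difference, while the sizes changed little, for example 2.40 and 2.63 for the cycloheximide difference of ZNF593 and -1.37 and -1.39 for the T-arm difference of ZNF267.

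**Figure D5:**
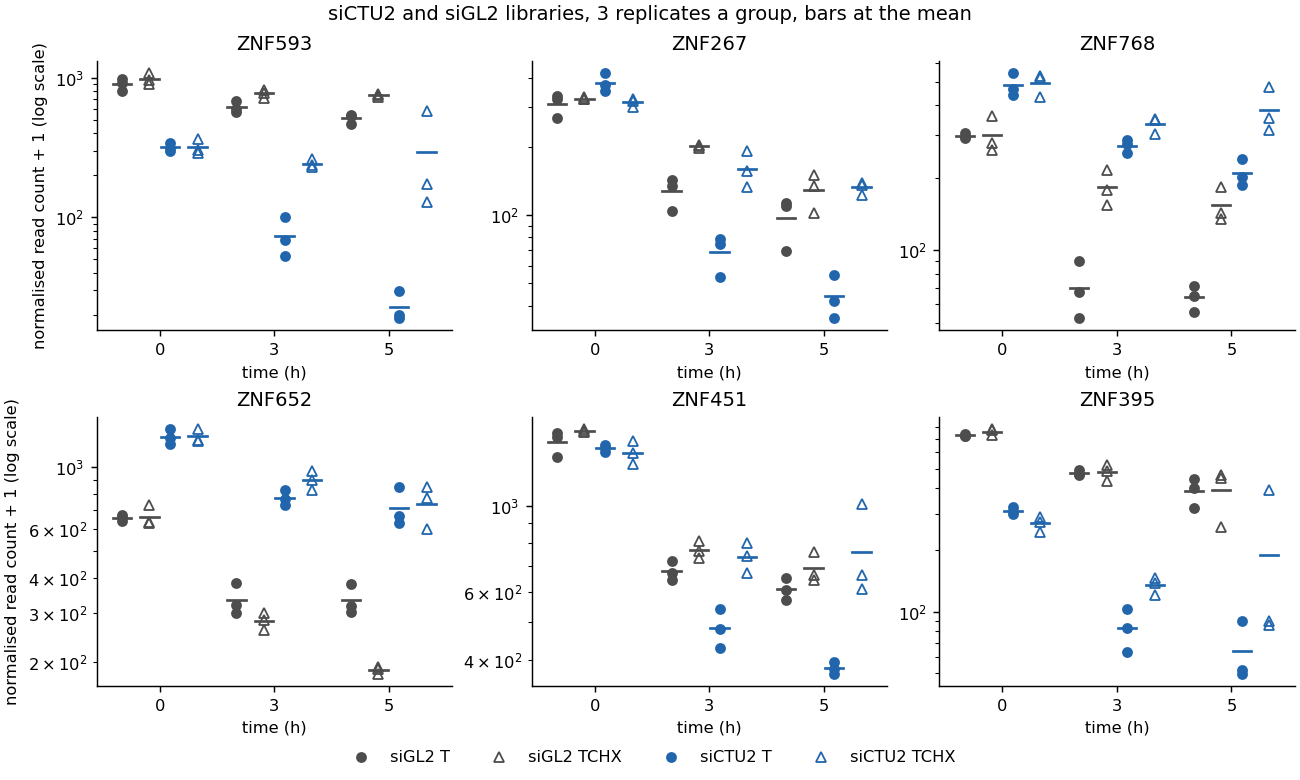
Normalised read count plus 1 (log scale, vertical axis) of 6 members at 0, 3 and 5 h (horizontal axis, h) in siGL2 (grey) and siCTU2 (blue); filled circles are T libraries, open triangles TCHX libraries, bars the means of 3. The siCTU2 T libraries of ZNF593 fall to between 18.0 and 28.7 at 5 h, and its highest siCTU2 TCHX point at 5 h, 576, is the library that goes against its label.

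At 0 h, before decay could be followed, 38 members were higher and 22 lower in siCTU2 than in siGL2, where 17.8% of all 12292 genes were called higher and 18.2% lower. Members were thus called at 15.3% and 8.84%. ZNF608 had the largest rise, with 51.3, 49.3 and 51.8 CPM in siCTU2 and 24.0, 17.2 and 27.0 CPM in siGL2 (log2 difference 1.16 ± 0.14, edgeR adjusted p = 3.84e-06). ZNF521, a cofactor of progenitor cells, had the largest fall, from 31.0, 23.8 and 34.1 CPM to 7.69, 8.76 and 10.1 CPM (-1.73 ± 0.17, edgeR adjusted p = 3.39e-07). Neither pair of groups overlapped. ZNF593 was at 73.0, 76.6 and 67.9 CPM in siGL2 and at 25.1, 24.4 and 22.5 CPM in siCTU2 (-1.60 ± 0.11, edgeR adjusted p = 2.35e-09). ZNF622 fell by 0.62 ± 0.10 (edgeR adjusted p = 0.000126), so both ribosome maturation members were lower. Of 132 KRAB members, 15 were called higher and 3 lower, and of 113 others 22 and 19. With the TCHX 0 h libraries 41 members were called higher and 21 lower, beside 18.3% and 18.9% of all genes, and of the KRAB members 16 and 5. The differences of ZNF608, ZNF521, ZNF593 and ZNF622 were then 1.35, -1.48, -1.61 and -0.78, all called.

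In the medium experiment no member was called for a difference in either measure. Between mQ and pQ, 0 members and 0% of all 14177 genes were called by edgeR for the T-arm change, with 17 members at an unadjusted p under 0.05, and 0 members and 0% of all genes for the cycloheximide effect, with 15 members. DESeq2 called 0 and 0 members. The member medians of the differences were 0.28 and -0.13 with all libraries and -0.20 and 0.28 without those that stand apart, so that the sign turned on them. Without them 1 and 4 members were called, beside 0.2% and 0.566% of all genes, and without replicate 3 as a whole 19 and 15, beside 6.81% and 2.13% of all genes. ZNF112 and ZNF276 had the smallest p for the T arm and ZNF581 and ZNF236 for cycloheximide. ZNF581 had effects of 1.18 ± 0.37 in mQ and 2.74 ± 0.25 in pQ (SE), a difference of -1.56 ± 0.48 that was not called. Without the libraries that stand apart the mQ effect was 2.00 and the difference -0.75, also not called.

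With all libraries, 0 h levels gave calls between mQ and pQ, where the T-arm change and the cycloheximide effect gave none. Without glutamine, 45 members were higher and 9 lower, where 12.5% of all 12374 genes were called higher and 12.4% lower. Members were thus called higher at 18.1% and lower at 3.61%. Of the KRAB class 28 were higher and 0 lower. ZNF773 was at 21.2, 30.5 and 26.0 CPM in mQ and at 11.4, 10.2 and 9.17 CPM in pQ (1.40 ± 0.19, edgeR adjusted p = 0.000474). ZNF419, another KRAB member of chromosome 19, was at 31.8, 32.4 and 32.3 CPM against 11.1, 17.6 and 13.6 CPM (1.24 ± 0.18, edgeR adjusted p = 0.000721). For both, every mQ library was above every pQ library. ZNF329 and ZNF766 rose by 1.15 ± 0.25 and 1.14 ± 0.19 (edgeR adjusted p = 0.00699 and 0.00183).

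Among the falls without glutamine, ZNF503 was at 29.5, 32.1 and 31.0 CPM in mQ and 50.7, 60.7 and 54.7 CPM in pQ (-0.79 ± 0.13, edgeR adjusted p = 0.00131). ZNF367, ZNF706 and ZNF146, a protein made almost wholly of fingers, were lower by log2 differences of -0.92, -0.88 and -0.72. With the TCHX 0 h libraries, ZNF706 and ZNF146 had differences of 0.15 and 0.26, and of -0.13 and -0.10 without pQ TCHX 0 h replicate 3, none of them called. In the same TCHX libraries ZNF773, ZNF419 and ZNF766 were still called, at 1.22, 0.90 and 0.80, while ZNF329, ZNF503 and ZNF367 were not, at 0.63, -0.56 and -0.31. Without pQ TCHX 0 h replicate 3, ZNF503 and ZNF367 were called, at -0.71 and -0.62. The count also depended on the libraries: 14 members were higher and 1 lower with the TCHX 0 h libraries, where 3.82% and 2.65% of all genes were called (KRAB members 11 and 0), and 42 were called when pQ TCHX 0 h replicate 3 was left out, beside 20.1% of all genes. Without pQ T 0 h replicate 1, or without replicate 2, the T-arm count was 28. The share of all genes called in those fits is not given here, so this count shows only the dependence on single libraries.

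The TDD index, the difference between the arms as a fraction of the 0 h count, was higher in siCTU2 for 33 members and lower for 1 at an unadjusted p of at most 0.05 in the study's linear model, where 7.28% of all 12263 genes were higher and 0.873% lower. Without the libraries that stand apart 28 were higher and 4 lower, beside 5.92% and 1.75% of all genes. No member passed after Benjamini-Hochberg adjustment. The smallest p belonged to ZNF200, with a difference of 0.18, and ZNF134, with 0.18 (adjusted p = 0.322 and 0.351 from the linear model over all genes). Between mQ and pQ 5 members were higher and 7 lower, where 3.48% and 1.3% of all 12395 genes were. Without the libraries that stand apart this became 47 higher and 5 lower, where 12.9% and 1.04% of all genes were.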

How the data were processed

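Cytoplasmic RNA of A375 cells was sequenced as 72 QuantSeq libraries. Per the submitters' processing notes, reads were handled with fastp 0.20.1, HISAT2 2.2.1 and HTSeq 0.13.5; the authors deposited raw counts per gene, and whether strand was used in counting is not given in the sources used here. Here, edgeR 4.0.16 quasi-likelihood models (R 4.3.3) were fitted to all genes after filterByExpr, scaled by stable genes for the time courses and by TMM at 0 h, with Benjamini-Hochberg adjustment and a threshold of 0.05. DESeq2 1.42.0 was an alternative. Stable genes, after the study's rule, had over 0.2 CPM at 0 h and at least 1.1 times their 0 h CPM at 3 or 5 h. Their 0 h CPM was also over 0.1 of the later one. This had to hold in each replicate, arm and condition of an experiment, and did for 198 genes (siRNA) and 82 (medium). Only 8 and 3 passed at both times. These genes were thus picked for a rising share of the library, which sets all other genes lower on this scale. The TDD index was fitted per gene with an ordinary linear model of condition, time and replicate number, as the study did, so the 3 h and 5 h values of a replicate entered separately. The edgeR fit of the cycloheximide effect was tested on simulated counts for the siGL2 libraries. Fingers and KRAB A boxes (pyhmmer 0.12.3) came from GENCODE v44 translations on GRCh38, in place of RefSeq proteins. Medians of the remaining level over gene groups used normalised counts plus 0.5, and remaining levels of single genes used no pseudocount. Genes were named by their rank in the mean over conditions, by level, by known function, or by a called difference. The members and lists were chosen with earlier results of these data known. Near-identical zinc finger genes can share 3′ reads, so their counts are uncertain.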

Additional observations from a re-analysis of the deposited data

Results flagged for a closer look

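The response differed between siCTU2 and siGL2, by the test of the difference itself in edgeR, in 7 instances over 5 members. The cycloheximide effect was higher in siCTU2 by 2.28 for ZNF593, 0.67 for ZNF652, 0.62 for ZNF451 and 0.89 for ZNF267 (log2). For ZNF652 the siGL2 effect was below 0. The T-arm change differed by -2.30 for ZNF593, -1.34 for ZNF267 and 1.14 for ZNF768 (log2). None of these 7 was called without replicate 1.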

How the results depend on the processing

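Most values kept their size: of the summary values under alternatives, 192 stayed within the limits set and 65 moved, and of single-gene results 715 kept direction and call, 88 lost the call and 5 changed sign. The sign changes were ZNF428 in mQ (0.013) and ZNF883 in siCTU2 and mQ (0.059 and 0.11) for the T-arm change under TMM, and ZNF706 and ZNF146 (0.15 and 0.26) for the 0 h level in the TCHX libraries. Causes were not tested. Counts of called members below show how calls move with the setting, and are no comparison of members with other genes. The share of all genes called moved too. For the cycloheximide effect in mQ it was 5.12% with all libraries and 21.1% without those that stand apart.

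For the T-arm change, the fitted medians of members minus other genes were -1.02, -1.18, -0.96 and -1.15 with the settings of the report, and at 3 h alone -0.81, -0.95 and -0.94 (siCTU2, siGL2, pQ), and at 5 to 10 CPM -1.33 in siGL2 and -1.46 in pQ. Under TMM 143 members were called in mQ. For the cycloheximide effect, calls in siCTU2, siGL2, mQ and pQ were 61, 50, 1 and 50 at 3 h alone, and 101, 45, 0 and 67 with the 0 h difference subtracted. In mQ they were 89 with stable genes passing at both times, 110 without a filter and 176 without the libraries that stand apart, and in pQ 82 with stable genes passing at both times. The median gaps, from the fits, were 0.74, 0.67, 0.58 and 0.66 in siCTU2, siGL2, mQ and pQ with the settings of the report. They were 0.54, 0.58 and 0.49 (siCTU2, siGL2, pQ) at 3 h, 0.69 and 0.63 (siCTU2, pQ) with the 0 h difference subtracted, 0.69, 0.76 and 0.78 (siCTU2, siGL2, pQ) at 5 to 10 CPM, and 0.66 and 0.91 (siCTU2, mQ) without the libraries that stand apart.

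Leaving out 1 replicate at a time gave -1.18 to -1.04 for T-arm change, pQ, median of members minus other genes, 112 to 157 for cycloheximide effect, siCTU2, 0.64 to 0.74 for cycloheximide effect, siCTU2, median of members minus other genes, 73 to 146 for cycloheximide effect, siGL2, 0 to 176 for cycloheximide effect, mQ, 78 to 148 for cycloheximide effect, pQ, 0 to 4 for cycloheximide effect, siCTU2 minus siGL2, 0 to 4 for T-arm change, siCTU2 minus siGL2, 16 to 27 for TDD index, siCTU2 against siGL2, 0 to 15 for cycloheximide effect, mQ minus pQ, 0 to 19 for T-arm change, mQ minus pQ, 28 to 55 for 0 h level, mQ against pQ, 5 to 40 for TDD index, mQ against pQ.

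The difference between siCTU2 and siGL2 was called in the cycloheximide effect for 2 members under TMM, 1 with stable genes passing at both times, 8 by DESeq2 and 0 at 3 h alone, and in the T-arm change for 0 with stable genes passing at both times and 0 at 3 h. Between mQ and pQ it was called for 5 and 5 members without a filter, and for 4 (cycloheximide) and 1 (T arm) without the libraries that stand apart. The 0 h count between mQ and pQ was 15 in the TCHX libraries. The TDD index gave 55 members (siRNA) and 26 (medium) with a separate 0 h baseline for each arm, and 52 (medium) without the libraries that stand apart. Pairing by replicate number was taken as shown only if every correlation between same-numbered libraries passed 0.1. In the siRNA experiment 148 of 198 did and in the medium one 140 of 198, so the block stayed an alternative. As a hint from the data, 34 of 36 and 30 of 36 libraries correlated best, on average, with their own number. With the replicate block the T-arm calls were 239, 236, 238 and 242, the cycloheximide calls 175, 143, 74 and 161, the differences 4 and 3 (siRNA) and 0 and 0 (medium), and the 0 h calls 70 and 40; without it the TDD index gave 37 and 11. The block changed no named call. Low counts at 5 h limit the fastest members.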
